A study of Arabidopsis thaliana with 42 samples.

Results

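RNA abundance was compared between seedlings labelled rh6812 and wild-type Col-0 seedlings of Arabidopsis thaliana in rRNA-depleted libraries taken at 0 min, before the decay time course that followed. The comparison rests on 6 of the 42 libraries of the series, chosen by their labelled preparation, genotype and time, and on every locus of the count table. The rh6812 libraries were 3 replicates from whole 5-day-old seedlings at 0 min. The label names the RNA helicases RH6, RH8 and RH12, and no further allele is given. The Col-0 libraries were 3 replicates of the same age, tissue and time. Both groups carry the ecotype label Col-0 and the agent label cordycepin, a nucleoside analogue used to block transcription. Whether seedlings at 0 min had already met the compound is not stated. RNA was prepared with a TruSeq total RNA kit with plant rRNA depletion, so transcripts without a poly(A) tail were also counted, among them those of the chloroplast and mitochondrion. No label states that the replicates were grown separately, so the tests measure variation between libraries that may be technical.

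RH6, RH8 and RH12 are DEAD-box helicases related to yeast DHH1 and animal DDX6, proteins known for a role in mRNA decapping and in the repression of translation, and for their place in cytoplasmic processing bodies. The 0 min libraries are the starting point of the decay time course. Abundance alone does not separate RNA synthesis from RNA decay. The chloroplast and mitochondrial genomes are transcribed by dedicated polymerases, and nuclear-encoded factors control that transcription.

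Total counts were 18920666, 13965971 and 22251739 in the rh6812 libraries, and 21216397, 17723331 and 21936952 in the Col-0 libraries. The biological coefficient of variation was 12.9% among rh6812 replicates and 18.5% among Col-0 replicates, and the Col-0 value was 13.7% without Col-0 replicate 2. Col-0 replicate 2 stood apart in defence and jasmonate genes, and Col-0 replicate 3 in cold and abscisic acid genes, and their values stand beside the results they touch. Levels below are counts per 1000000 (CPM) of the TMM-scaled library size. A locus was called when the Benjamini-Hochberg adjusted p of edgeR's quasi-likelihood test was under 0.05. Changes are log2 of rh6812 over Col-0, with the SE of the fit. The gene lists below were chosen with earlier results of these data known. A list's count beside the share of all loci therefore describes the list and is not a test of it. Where no member of a list is given as higher or as lower at 0 min, DESeq2's Wald test also called none, and no member passed an unadjusted p of 0.05 in that direction, save 1 seed marker.

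The helicase transcripts were examined first because the label names these genes. RH6 (AT2G45810) had 368, 342 and 423 CPM in rh6812 libraries, against 33.1, 36.2 and 36.6 CPM in Col-0 libraries. The groups were far apart, with RH6 higher in the libraries whose label names it (log2 change 3.42 ± 0.14 SE, adjusted p = 4.9e-16). With no allele stated, the label does not say which direction RH6 RNA should take. RH8 (AT4G00660) had 3.74, 3.06 and 3.46 CPM in rh6812 libraries, against 34.2, 35.8 and 34.3 CPM in Col-0 libraries, and it was low in every rh6812 library (log2 change -3.34 ± 0.12 SE, adjusted p = 1.2e-17). RH12 (AT3G61240) had 10.2, 8.99 and 9.81 CPM in rh6812 libraries, against 15.9, 16.4 and 20.6 CPM in Col-0 libraries, again with no overlap (log2 change -0.87 ± 0.11 SE, adjusted p = 5.8e-07). The same directions held in the separate libraries at 15 min, with log2 changes of 3.57 for RH6, -3.44 for RH8 and -0.93 for RH12. The remorin gene AT2G45820 overlaps RH6 in the annotation and, chosen after its values were seen, was lower in rh6812 (-0.63 ± 0.20 SE). Without a stated strand setting, reads of overlapping genes cannot be told apart, which also touches RH8, SARD1, FRK1, MKK5, COI1, BHLH038, GASA6, NRT1.5, FAR1, LHCB2.3, CAB1, LHCA4, MGP3, MBF1C, RAB18, ABI1, IAA3, RRP44A, LNK2, MCCA, BCAT2, ASN1, CDKB2;1, RPL16B, RPL3B, PYK10, CASP1 and some of the genes given below by a log2 change alone. Every direction given for rh6812 below is that of the libraries labelled rh6812, in which RH8 and RH12 were lower and RH6 was higher.

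**Figure D1:**
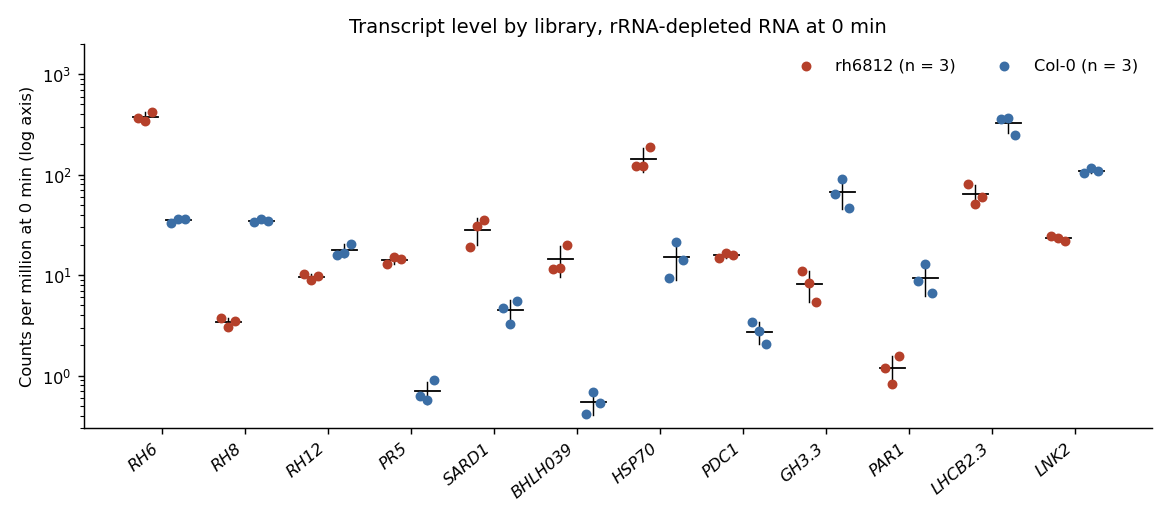
Transcript level of 12 genes in each rRNA-depleted library at 0 min, in CPM on a log axis. Red points are rh6812 libraries and blue points Col-0 libraries, and black bars show the mean and SD of 3 libraries. RH6, PR5, SARD1, BHLH039, HSP70 and PDC1 lie higher in all rh6812 libraries, and RH8, RH12, GH3.3, PAR1, LHCB2.3 and LNK2 lie lower.

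A large share of the measured transcriptome differed by genotype. Of 21486 loci tested, 5240 (24.4%) were higher and 5150 (24.0%) lower in rh6812, 48.4% in all. Changes above 2-fold were more often increases, with 2184 higher against 1271 lower. For 54.1% of loci the replicates of the groups did not overlap. The calls assume that a typical locus did not change: the median log2 change was -0.02 with TMM scaling. With library size alone the median was 0.20 and the split became 7203 higher and 2573 lower, so changes are relative to the bulk of transcripts. None of the 10390 loci called had the opposite call under any other scaling, test, filter or left-out library that was tried. Fewer kept their call, with 7813 kept under library size alone and 8544 in a fit of only the 6 libraries at 0 min. That fit called 4425 loci higher and 4275 lower.

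The libraries at 15 min shared no library with those at 0 min. There 5333 loci (24.8%) were higher and 5475 (25.5%) lower in rh6812, 50.3% in all, and library size alone gave 7126 higher and 3029 lower. Of the calls, 8511 had the same direction at both times, which is 81.9% of those at 0 min and 78.8% of those at 15 min, and 15 had opposite directions.

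Chloroplast transcripts were lower in rh6812 as a class. None of the 88 chloroplast loci was called higher and 69 were called lower, 19 of them by more than 2-fold, beside the 24.0% of all loci called lower. Replicates did not overlap for 73 loci that were lower in rh6812, beside 54.1% of all loci in either direction. The median log2 change was -0.79, with a range from -1.28 to 0.55, and 82 of the 88 changes were negative. All 69 loci were also called lower at 15 min, where 70 were, with a median of -0.90. In whole seedlings, fewer chloroplast-bearing cells and less chloroplast RNA per cell cannot be told apart.

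Chloroplast loci took 43.7%, 43.6% and 46.6% of all counts in rh6812 libraries, against 55.4%, 51.4% and 52.1% in Col-0 libraries. The groups did not overlap (44.7% ± 1.69 and 53.0% ± 2.16, SD, n = 3 each). A two-sided exact permutation test of 3 against 3 libraries gave p = 0.1, the smallest value it can give. A pair of loci made up most of these counts. ATCG00020 took 23.2%, 24.0% and 26.9% in rh6812, against 29.7%, 25.0% and 26.6% in Col-0, and the groups overlapped (exact permutation p = 0.3). ATCG00490 took 11.9%, 11.1% and 12.01% in rh6812, against 13.9%, 12.6% and 12.5% in Col-0, without overlap. All remaining chloroplast loci together took 8.63%, 8.45% and 7.74% in rh6812, against 11.9%, 13.8% and 13.0% in Col-0, the widest relative gap of these shares. In the fit, ATCG00020 was just short of the threshold (log2 change -0.37 ± 0.16 SE, adjusted p = 0.05), and ATCG00490 was called lower (log2 change -0.39 ± 0.12 SE, adjusted p = 0.011).

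**Figure D2:**
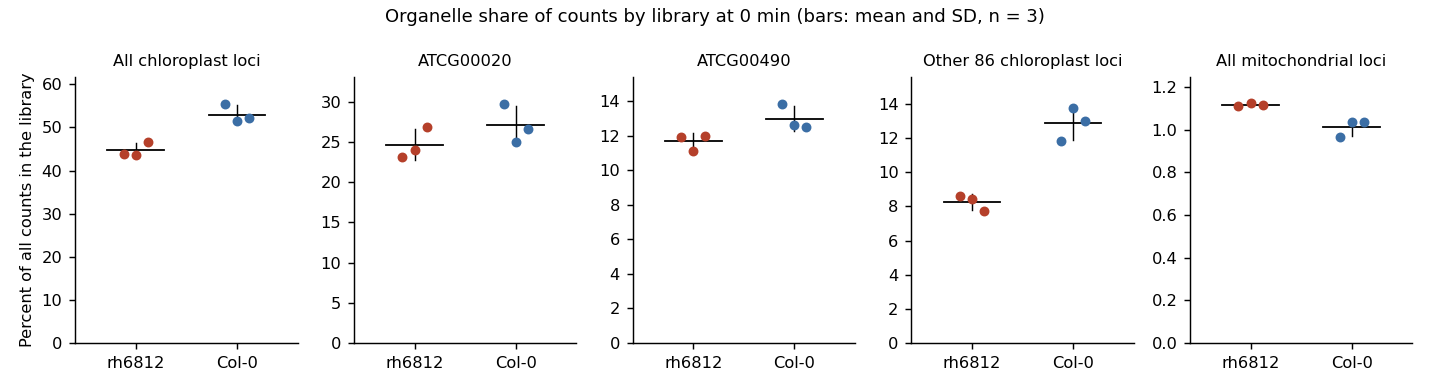
Percent of all counts in each library at 0 min taken by chloroplast loci, by ATCG00020, by ATCG00490, by all other chloroplast loci and by mitochondrial loci. Points are libraries (rh6812 red, Col-0 blue) and bars the mean and SD of 3. The chloroplast share lies at 43.6% to 46.6% in rh6812 and 51.4% to 55.4% in Col-0, while ATCG00020 overlaps between the groups.

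The chloroplast loci with the smallest p are given by locus, since the names table covers few of them. ATCG00420 had 321, 299 and 317 CPM in rh6812 libraries, against 729, 708 and 704 CPM in Col-0 libraries (log2 change -1.19 ± 0.10 SE, adjusted p = 3.8e-10). ATCG00430, annotated as photosystem II reaction center protein G, had 423, 399 and 391 CPM in rh6812 libraries, against 965, 945 and 890.1 CPM in Col-0 libraries (log2 change -1.21 ± 0.11 SE, adjusted p = 2.5e-09). ATCG00680 had 4609, 4024 and 3963 CPM in rh6812 libraries, against 10647, 9563 and 10178 CPM in Col-0 libraries (log2 change -1.27 ± 0.12 SE, adjusted p = 4.7e-09). At each of these loci all rh6812 libraries were far below the lowest Col-0 library.

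The annotation describes 6 chloroplast loci, which were picked for this after their values were seen. Besides ATCG00430, ribosomal protein loci ATCG00750 (S11, -0.89 ± 0.17 SE), ATCG01310 (L2, -0.89 ± 0.12) and ATCG00660 (L20, -0.83 ± 0.20) were called lower. ATCG00530, a CemA-like protein, had a change of similar size without a call (log2 change -0.78 ± 0.41 SE, adjusted p = 0.12). ATCG00670, the plastid-encoded Clp protease subunit, had 1709, 1594 and 1706 CPM in rh6812 libraries, against 1689, 1458 and 1551 CPM in Col-0 libraries, and its groups overlapped (log2 change 0.09 ± 0.10 SE, adjusted p = 0.48). ATCG00510, with the highest change, varied widely between libraries, with 64.8, 211 and 194 CPM in rh6812 libraries, against 42.3, 193 and 84.1 CPM in Col-0 libraries (log2 change 0.55 ± 1.12 SE, adjusted p = 0.71).

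Mitochondrial loci were called lower about as often as all loci, and higher less often. Of 122 mitochondrial loci in the table, 113 passed the filter on low counts, 11 were called higher and 28 lower, beside 24.4% and 24.0% of all loci, with a median log2 change of -0.21. With library size alone 16 were higher and 10 lower. At 15 min all 11 of the higher loci and 21 of the 28 lower ones were called the same way. Their summed share was 1.11%, 1.12% and 1.11% of counts in rh6812, against 0.964%, 1.03% and 1.03% in Col-0 (exact permutation p = 0.1, the smallest possible). This share is of raw library totals, without the TMM scaling behind the calls and the median. Its direction therefore depends on the scale and does not show more mitochondrial RNA in rh6812.

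ATMG00180, annotated as cytochrome c biogenesis 452, had 87.6, 94.0 and 101 CPM in rh6812 libraries, against 61.0, 60.5 and 61.0 CPM in Col-0 libraries, with all rh6812 libraries higher (log2 change 0.63 ± 0.08 SE, adjusted p = 3.5e-07). Cytochrome c biogenesis factors attach heme to c-type cytochromes. ATMG00513 had 62.8, 59.4 and 58.8 CPM in rh6812 libraries, against 94.2, 109.8 and 118 CPM in Col-0 libraries (log2 change -0.83 ± 0.12 SE, adjusted p = 3e-06). ATMG01120 had 26.5, 25.9 and 28.7 CPM in rh6812 libraries, against 38.3, 39.2 and 41.5 CPM in Col-0 libraries (log2 change -0.55 ± 0.09 SE, adjusted p = 7.5e-06). Replicates of the groups overlapped at none of these loci. Other described mitochondrial loci, chosen after their values were seen, moved either way. The cytochrome c assembly protein locus ATMG00960 (0.67 ± 0.17 SE), ribosomal protein S7 locus ATMG01270 (0.61 ± 0.16) and ATP synthase subunit 9 locus ATMG01080 (0.47 ± 0.13) were higher. ATP synthase subunit 1 locus ATMG01190 (-0.39 ± 0.12) and ATPase subunit 8 locus ATMG00480 (-0.43 ± 0.10) were lower, and apocytochrome b locus ATMG00220 was not called (-0.06 ± 0.09). Some mitochondrial loci have near-identical nuclear copies, and how reads were assigned between copies is not given in the sources used here.

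**Figure D3:**
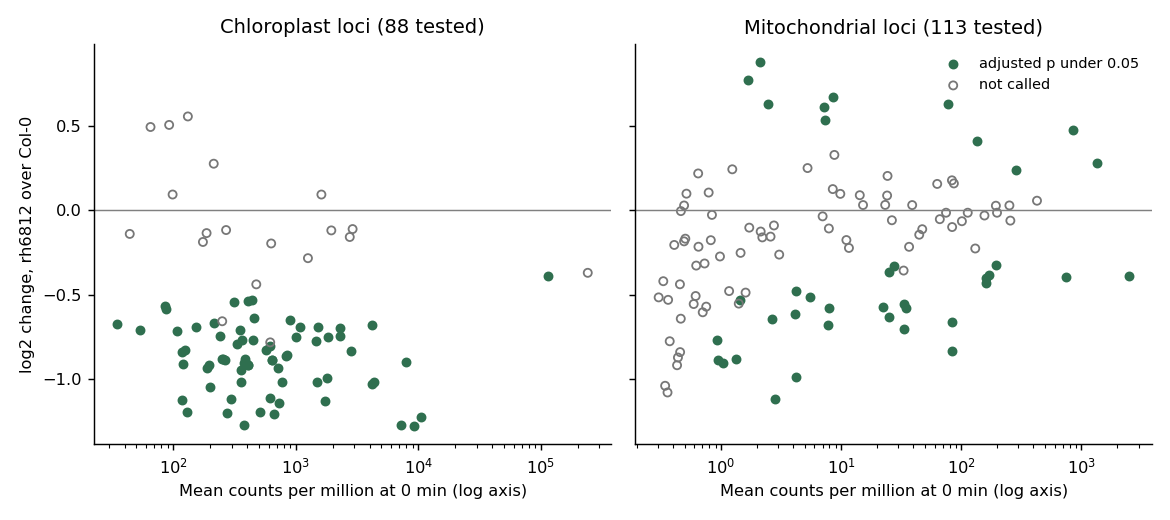
Log2 change (rh6812 over Col-0) against mean level at 0 min, in CPM on a log axis, for 88 chloroplast loci on the left and 113 mitochondrial loci on the right. Filled points have an adjusted p under 0.05. Called chloroplast loci all lie below 0 over the whole range of levels, and called mitochondrial loci lie on both sides.

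Nuclear genes of the photosynthetic apparatus were lower with the chloroplast loci. Of 47 genes for photosystem proteins, light-harvesting proteins, electron carriers and rubisco, 34 fell and 3 rose, against 24.0% and 24.4% of all loci. The median log2 change was -0.64. Light-harvesting genes, whose products bind chlorophyll around the photosystems, led the list. LHCB2.3 (AT3G27690, chosen after its values were seen) had 80.9, 51.1 and 59.5 CPM in rh6812 libraries, against 355, 367 and 249 CPM in Col-0 libraries (log2 change -2.34 ± 0.22 SE, adjusted p = 8.4e-09). LHCA2 (AT3G61470) had 418, 367 and 417 CPM in rh6812 libraries, against 1465, 1143 and 1227 CPM in Col-0 libraries (log2 change -1.67 ± 0.14 SE, adjusted p = 3.6e-10). CAB1 (AT1G29930), listed among the mesophyll markers too, had 3472, 3071 and 3089 CPM in rh6812 libraries, against 9098, 7676 and 8745 CPM in Col-0 libraries (log2 change -1.41 ± 0.14 SE, adjusted p = 5.8e-09). No rh6812 library reached the lowest Col-0 library for any of these genes. LHCB1.4 (-1.95 ± 0.18 SE) and LHCA4 (-1.80 ± 0.18) fell by similar amounts.

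The 4 listed rubisco small subunit genes were split. RBCS2B fell (-0.78), RBCS3B rose (0.54), and RBCS1B was not called (0.13). RBCS1A (AT1G67090) had 8034, 7868 and 8438 CPM in rh6812 libraries, against 8064, 6201 and 6661 CPM in Col-0 libraries, and the groups overlapped (log2 change 0.22 ± 0.13 SE, adjusted p = 0.17). The photosystem II gene PSBO2 (0.50) and the ferredoxin gene FED A (0.49) were the other members of the list that rose. Members of these families are near-identical in sequence, so counts may be split between copies. Of 8 leaf and cotyledon mesophyll markers, CAB1 fell and 7 were not called, beside 24.0% of all loci called lower. The 8 markers summed to 14604 to 15844 CPM in rh6812 and 17923 to 21681 CPM in Col-0. The drop in CAB1, given above, was at least as wide as this gap, so the sums do not show a fall of the other 7. The part of mesophyll content in the photosystem result was not tested.

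Nuclear genes for organelle transcription were also lower, with 13 of 22 falling and 1 rising, against 24.0% and 24.4% of all loci (median -0.50). With library size alone 5 fell and 3 rose. SIG6 (AT2G36990), a sigma factor that guides the plastid-encoded polymerase, had 18.0, 20.6 and 17.5 CPM in rh6812 libraries, against 31.8, 33.1 and 37.2 CPM in Col-0 libraries (log2 change -0.87 ± 0.11 SE, adjusted p = 8e-07). SIG1 (AT1G64860), another sigma factor, had 5.88, 7.05 and 4.54 CPM in rh6812 libraries, against 10.6, 14.5 and 12.8 CPM in Col-0 libraries (log2 change -1.13 ± 0.19 SE, adjusted p = 2.1e-05). Neither gene overlapped between the groups. MGP3 (AT1G68990), a mitochondrial RNA polymerase gene, fell by 0.83, and PTAC10 (AT3G48500), a part of the plastid transcription complex, fell by 0.81. FSD2, a plastid iron superoxide dismutase, rose (0.48).

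The 8 largest increases among nuclear genes that met the naming rule given with the processing ran from 6.33 to 9.04 on the log2 scale. The rule has a floor on average level that high rh6812 counts alone can meet, so Col-0 levels may be poorly measured. PCC1 (AT3G22231), named for its control by pathogens and the clock, had 11.9, 48.2 and 54.5 CPM in rh6812 libraries, against 0.155, 0.0523 and 0 CPM in Col-0 libraries (log2 change 9.04 ± 1.04 SE, adjusted p = 5.8e-07). AT5G42530, an uncharacterized protein, had 175, 279 and 296 CPM in rh6812 libraries, against 1.08, 1.31 and 1.65 CPM in Col-0 libraries (log2 change 7.52 ± 0.45 SE, adjusted p = 1.8e-11). AIG1 (AT1G33960), first known as a gene induced by a bacterial effector, had 15.2, 46.8 and 36.7 CPM in rh6812 libraries, against 0.0516, 0.471 and 0.0894 CPM in Col-0 libraries (log2 change 7.33 ± 0.78 SE, adjusted p = 1.8e-07). For PCC1 and AIG1 rh6812 replicate 1 was the lowest rh6812 library. Their Col-0 levels were close to 0, so the size of these changes is poorly fixed. PCR1 (AT1G14880), a cadmium resistance gene, held 3 counts over the Col-0 libraries and 1253 over those of rh6812, a ratio of 395 (95% interval 135 to 1919, counting error only). AT5G10760, an aspartyl protease (7.15 ± 0.45 SE), and AT2G37870, a lipid-transfer-like protein (6.61 ± 0.61), completed the set with PBS3 and BHLH038, which belong to lists below.

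The 8 largest decreases ran from -3.85 to -2.55. AT5G02540, a Rossmann-fold protein, had 4.01, 1.998 and 2.98 CPM in rh6812 libraries, against 40.9, 73.9 and 17.0 CPM in Col-0 libraries (log2 change -3.85 ± 0.78 SE, adjusted p = 0.00038). GASA6 (AT1G74670), a gibberellin-regulated peptide gene, had 5.12, 2.76 and 5.15 CPM in rh6812 libraries, against 49.1, 37.4 and 55.5 CPM in Col-0 libraries (log2 change -3.42 ± 0.38 SE, adjusted p = 2.3e-07). NRT1.5 (AT1G32450), a transporter that loads nitrate into the xylem, had 18.1, 18.4 and 16.4 CPM in rh6812 libraries, against 90.8, 70.6 and 152 CPM in Col-0 libraries (log2 change -2.57 ± 0.24 SE, adjusted p = 6.6e-09). The rule that chose this set required that replicates of the groups not overlap, and Col-0 itself varied over 2-fold at AT5G02540 and NRT1.5. FAR1 (AT5G22500), a fatty acid reductase (-2.77 ± 0.59 SE), AT2G27402, annotated as a plastid transcriptionally active protein (-2.83 ± 0.33), and AT3G21330, a bHLH protein (-2.55 ± 0.37), also fell. RH8 and GH3.3 were the other members of this set.

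Salicylic acid is the hormone of immunity to biotrophic pathogens. Of 27 genes of its synthesis, signalling and response, 21 rose and none fell (median 1.59), against the 24.4% of all loci called higher. PR5 (AT1G75040), a thaumatin-like defence protein, had 12.8, 15.1 and 14.5 CPM in rh6812 libraries, against 0.619, 0.576 and 0.894 CPM in Col-0 libraries (log2 change 4.31 ± 0.32 SE, adjusted p = 1.2e-10). SARD1 (AT1G73805) and CBP60G (AT5G26920) encode transcription factors that activate salicylic acid synthesis. SARD1 had 19.0, 31.1 and 35.0 CPM in rh6812 libraries, against 4.69, 3.297 and 5.54 CPM in Col-0 libraries (log2 change 2.64 ± 0.21 SE, adjusted p = 2.5e-10). CBP60G had 51.0, 48.4 and 68.9 CPM in rh6812 libraries, against 13.4, 6.54 and 17.1 CPM in Col-0 libraries (log2 change 2.18 ± 0.24 SE, adjusted p = 1e-07). PBS3 (AT5G13320), an enzyme of salicylic acid synthesis, had 7.13, 24.1 and 34.0 CPM in rh6812 libraries, against 0, 0 and 0.358 CPM in Col-0 libraries (log2 change 7.31 ± 0.81 SE, adjusted p = 2.8e-07). These genes were higher in every rh6812 library, but the size of the PBS3 change rests on almost no Col-0 counts.

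Some members, chosen after their values were seen, had almost no counts in Col-0. PR2 (AT3G57260), a beta-glucanase, and LURP1 (AT2G14560) had none in any Col-0 library, so with a floor of 3 counts summed over Col-0, PR2 was at least 215-fold and LURP1 at least 189-fold higher. PR1 (AT2G14610), the classic marker of this pathway, held 1 count in Col-0, and in rh6812 it varied widely, with 0.178, 11.2 and 3.54 CPM. The summed level of the list was 451, 632 and 712 CPM in rh6812, against 288, 174 and 322 CPM in Col-0. Leaving out Col-0 replicate 2, the lowest, gave 19 members higher.

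Genes of defence triggered by microbial patterns moved less evenly (median 0.49). Of 24, 11 were higher and 3 lower, beside 24.4% and 24.0% of all loci. FRK1 (AT2G19190), a receptor kinase gene induced by flagellin, had 12.6, 13.8 and 9.21 CPM in rh6812 libraries, against 2.17, 1.78 and 3.31 CPM in Col-0 libraries (log2 change 2.27 ± 0.24 SE, adjusted p = 3e-08). PAD3 (AT3G26830), the last enzyme of camalexin synthesis, had 24.1, 55.3 and 53.9 CPM in rh6812 libraries, against 7.22, 3.51 and 5.23 CPM in Col-0 libraries (log2 change 3.06 ± 0.47 SE, adjusted p = 1.7e-05). Both were higher in all rh6812 libraries, and so were NHL10 (2.197 ± 0.36 SE) and the kinase gene MKK5 (0.77 ± 0.14). The members that fell were MPK6 (-0.41), WRKY22 (-1.05) and the flagellin receptor gene FLS2 (-0.85). The summed level was 1613, 1417 and 1535 CPM in rh6812, against 1476, 792 and 1597 CPM in Col-0, and only Col-0 replicate 2 was below the rh6812 range. Without that library 9 were higher and 3 lower.

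Rapid regulators of touch and wounding showed 12 of 27 members higher and 1 lower (median 0.36), beside 24.4% and 24.0% of all loci. WRKY46 (AT2G46400), a transcription factor gene, had 62.3, 68.4 and 90.09 CPM in rh6812 libraries, against 7.53, 4.19 and 16.0 CPM in Col-0 libraries (log2 change 2.98 ± 0.35 SE, adjusted p = 4.6e-07). ZAT12 (AT5G59820), a zinc finger gene of many stresses, had 43.0, 49.2 and 45.6 CPM in rh6812 libraries, against 10.2, 13.4 and 11.5 CPM in Col-0 libraries (log2 change 1.97 ± 0.26 SE, adjusted p = 1.2e-06). CML23 (1.22 ± 0.22 SE), a calmodulin-like gene, and ZAT10 (0.95 ± 0.18) also rose. RRTF1 (AT4G34410), the member that fell, had 7.48, 5.88 and 6.995 CPM in rh6812 libraries, against 13.7, 6.38 and 51.4 CPM in Col-0 libraries, so 1 Col-0 library held most of its signal. Without that library, Col-0 replicate 3, no member was lower, and without Col-0 replicate 2 there were 3. The summed level overlapped, at 1987, 1633 and 2313 CPM in rh6812, against 1527, 935 and 2100 CPM in Col-0.

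Of 24 jasmonate genes 8 rose and 3 fell, set against 24.4% and 24.0% of all loci, and the median was -0.06. The 3 falling genes were the repressor genes JAZ3 (-1.04) and JAZ7 (-1.31) and the transcription factor gene MYC2 (-0.50). Among those that rose, COI1 (AT2G39940), the jasmonate receptor gene, had 39.6, 42.0 and 38.9 CPM in rh6812 libraries, against 19.5, 21.4 and 21.1 CPM in Col-0 libraries (log2 change 0.96 ± 0.10 SE, adjusted p = 2.8e-08). VSP2 (AT5G24770), a storage protein gene induced by jasmonate, had 13.4, 11.5 and 11.9 CPM in rh6812 libraries, against 0.825, 1.47 and 1.79 CPM in Col-0 libraries (log2 change 3.15 ± 0.40 SE, adjusted p = 1.1e-06). AOC2 (AT3G25770), an enzyme of jasmonate synthesis, had 125, 102 and 92.1 CPM in rh6812 libraries, against 52.3, 47.4 and 30.8 CPM in Col-0 libraries (log2 change 1.29 ± 0.22 SE, adjusted p = 3.5e-05). These 3 genes did not overlap between the groups. The number that fell depended on single libraries, being 7 without Col-0 replicate 2, and 1 without Col-0 replicate 3 or without rh6812 replicate 2. The summed level was 1675, 1264 and 1294 CPM in rh6812, against 1205, 617 and 1362 CPM in Col-0.

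Ethylene genes were more often lower (median -0.23). Of 16, 8 fell and 1, the receptor gene EIN4, rose, against 24.0% and 24.4% of all loci. At 15 min 4 fell and 3 rose. CTR1 (AT5G03730), the kinase that represses the pathway, had 24.1, 20.7 and 24.2 CPM in rh6812 libraries, against 33.2, 42.5 and 33.9 CPM in Col-0 libraries (log2 change -0.67 ± 0.12 SE, adjusted p = 7.4e-05). ACS4 (AT2G22810) and ACS8 (AT4G37770) encode synthases of the ethylene precursor and fell by 2.68 and 1.76, and EIN3 (AT3G20770), the central transcription factor gene, fell by 0.52. Counts of falling members were 5 without rh6812 replicate 1 and 3 with library size alone, where EIN3 was not called.

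Heat shock genes rose, with 15 of 21 tested members higher and 1 lower, against 24.4% and 24.0% of all loci (median 1.47). HSP70 (AT3G12580), a stress-induced chaperone gene, had 122, 123 and 189 CPM in rh6812 libraries, against 9.29, 21.4 and 14.3 CPM in Col-0 libraries (log2 change 3.27 ± 0.43 SE, adjusted p = 2.2e-06). HSP90.1 (AT5G52640) had 62.5, 75.5 and 110.4 CPM in rh6812 libraries, against 5.005, 7.85 and 9.52 CPM in Col-0 libraries (log2 change 3.47 ± 0.49 SE, adjusted p = 6.1e-06). HSFA2 (AT2G26150), a heat shock factor gene, was low in both groups, with 1.34, 1.35 and 1.57 CPM in rh6812 libraries, against 0.0516, 0.209 and 0 CPM in Col-0 libraries (log2 change 4.01 ± 0.59 SE, adjusted p = 4e-06). MBF1C (AT3G24500), a coactivator of the heat response, rose by 1.47. None of these overlapped between the groups. The list summed to 286, 296 and 424 CPM in rh6812, against 64.4, 91.9 and 81.2 CPM in Col-0. The member that fell, HSFA7A (-0.59), lost its call without any one of Col-0 replicates 2 and 3 and rh6812 replicates 2 and 3.

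Abscisic acid, cold and dehydration genes rose in 17 of 23 cases, beside 24.4% of all loci, and none fell (median 1.22). GOLS2 (AT1G56600), a galactinol synthase gene, had 4.28, 1.94 and 3.82 CPM in rh6812 libraries, against 0.155, 0.471 and 0.134 CPM in Col-0 libraries (log2 change 3.74 ± 0.60 SE, adjusted p = 1.8e-05). HAI1 (AT5G59220), a phosphatase gene induced by abscisic acid, had 13.0, 13.0 and 12.6 CPM in rh6812 libraries, against 0.929, 2.51 and 0.804 CPM in Col-0 libraries (log2 change 3.20 ± 0.54 SE, adjusted p = 4.7e-05). RAB18 (AT5G66400), a dehydrin gene, had 5.52, 6.94 and 4.302 CPM in rh6812 libraries, against 1.29, 0.994 and 0.581 CPM in Col-0 libraries (log2 change 2.55 ± 0.46 SE, adjusted p = 7.9e-05). ABI1 (AT4G26080), a phosphatase that holds back abscisic acid signalling, rose by 0.85. Groups were separate for all 4 genes. The summed level was 3809, 3462 and 3631 CPM in rh6812, against 2578, 2715 and 1558 CPM in Col-0, with Col-0 replicate 3 lowest. Without it 16 members were higher.

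Hypoxia genes rose in 9 of 12 cases, beside 24.4% of all loci, and none fell (median 1.74). PDC1 (AT4G33070), pyruvate decarboxylase of fermentation, had 14.97, 16.6 and 15.72 CPM in rh6812 libraries, against 3.41, 2.77 and 2.06 CPM in Col-0 libraries (log2 change 2.53 ± 0.19 SE, adjusted p = 5.8e-11). HB1 (AT2G16060), a non-symbiotic hemoglobin, had 23.1, 30.6 and 35.7 CPM in rh6812 libraries, against 3.096, 4.92 and 1.74 CPM in Col-0 libraries (log2 change 3.21 ± 0.38 SE, adjusted p = 6e-07). PCO2 (AT5G39890), an oxygen-sensing cysteine oxidase gene, rose by 1.83, and SUS1 (AT5G20830), sucrose synthase, by 1.65. The list summed to 246, 271 and 275 CPM in rh6812, against 142, 135 and 127 CPM in Col-0, without overlap.

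Nuclear genes of the mitochondrial stress response rose in 7 of 10 cases (median 0.80), against 24.4% of all loci, and none fell. OM66 (AT3G50930), an outer membrane protein gene, had 108, 85.2 and 105 CPM in rh6812 libraries, against 35.9, 21.6 and 39.1 CPM in Col-0 libraries (log2 change 1.63 ± 0.21 SE, adjusted p = 9.1e-07). AOX1A (AT3G22370), the alternative oxidase, had 67.7, 73.0 and 72.6 CPM in rh6812 libraries, against 33.8, 15.3 and 28.8 CPM in Col-0 libraries (log2 change 1.45 ± 0.23 SE, adjusted p = 1.8e-05). NAC017 (AT1G34190), a transcription factor that relays mitochondrial signals, rose by 0.52, and NDB2 (AT4G05020), an alternative NADH dehydrogenase, by 0.85. Every rh6812 library was above every Col-0 library at these genes.

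Iron homeostasis genes rose in 10 of 14 cases, against 24.4% of all loci, and none fell (median 1.25). BHLH038 (AT3G56970) and BHLH039 (AT3G56980) encode transcription factors that activate iron uptake. BHLH038 had 21.2, 20.9 and 46.0 CPM in rh6812 libraries, against 0.155, 0.314 and 0.581 CPM in Col-0 libraries (log2 change 6.33 ± 0.49 SE, adjusted p = 9e-10). BHLH039 had 11.6, 11.6 and 20.1 CPM in rh6812 libraries, against 0.413, 0.680 and 0.536 CPM in Col-0 libraries (log2 change 4.73 ± 0.37 SE, adjusted p = 3.2e-10). Their relative BHLH100 (AT2G41240) held 706 counts in rh6812 and 3 in Col-0, a ratio of 223 (95% interval 75.9 to 1082, counting error only). BTS (AT3G18290), a ligase that limits the iron deficiency response, had 226, 214 and 255 CPM in rh6812 libraries, against 56.4, 56.0 and 88.1 CPM in Col-0 libraries (log2 change 1.79 ± 0.23 SE, adjusted p = 6.6e-07). Factors that activate the response and a factor that limits it were thus all higher. Ferritin genes store iron, and of the 3 listed FER3 rose (0.71), while FER1 (0.17) and FER4 (-0.09) were not called.

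Early auxin response genes fell in 16 of 22 cases, against 24.0% of all loci, and none rose (median -0.86). At 15 min 8 fell and 3 rose (median -0.37). IAA29 (AT4G32280), an auxin-induced repressor gene, had 1.51, 0.823 and 0.121 CPM in rh6812 libraries, against 11.8, 12.7 and 10.1 CPM in Col-0 libraries (log2 change -3.83 ± 0.43 SE, adjusted p = 1.6e-07). GH3.3 (AT2G23170), an enzyme that conjugates auxin, had 10.9, 8.41 and 5.35 CPM in rh6812 libraries, against 64.4, 91.4 and 46.8 CPM in Col-0 libraries (log2 change -3.04 ± 0.39 SE, adjusted p = 1.9e-06). IAA3 (AT1G04240) had 14.6, 11.99 and 12.4 CPM in rh6812 libraries, against 34.1, 34.6 and 29.9 CPM in Col-0 libraries (log2 change -1.34 ± 0.16 SE, adjusted p = 2.5e-07). Each rh6812 library was below all Col-0 libraries, and IAA4 (-0.88 ± 0.16 SE) fell too. The list summed to 459, 382 and 401 CPM in rh6812, against 698, 781 and 581 CPM in Col-0.

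Cell expansion and shade genes fell in 12 of 19 cases (median -0.68), beside 24.0% of all loci. At 15 min 7 fell, beside 25.5% of all loci. PAR1 (AT2G42870), a regulator induced by shade, had 1.203, 0.823 and 1.57 CPM in rh6812 libraries, against 8.77, 12.8 and 6.61 CPM in Col-0 libraries (log2 change -2.93 ± 0.29 SE, adjusted p = 6.9e-09). PIF4 (AT2G43010), a phytochrome-interacting growth factor gene, had 2.005, 1.76 and 2.57 CPM in rh6812 libraries, against 6.81, 4.87 and 6.61 CPM in Col-0 libraries (log2 change -1.51 ± 0.23 SE, adjusted p = 6.3e-06). PIL1 (AT2G46970), another shade-induced gene, fell by 2.01, and XTH4 (AT2G06850), a wall-loosening enzyme gene, by 0.67. No rh6812 library overlapped Col-0 at these genes. The expansin gene EXPA4 was the single member that rose (0.95). Without Col-0 replicate 2, 8 members fell.

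**Figure D4:**
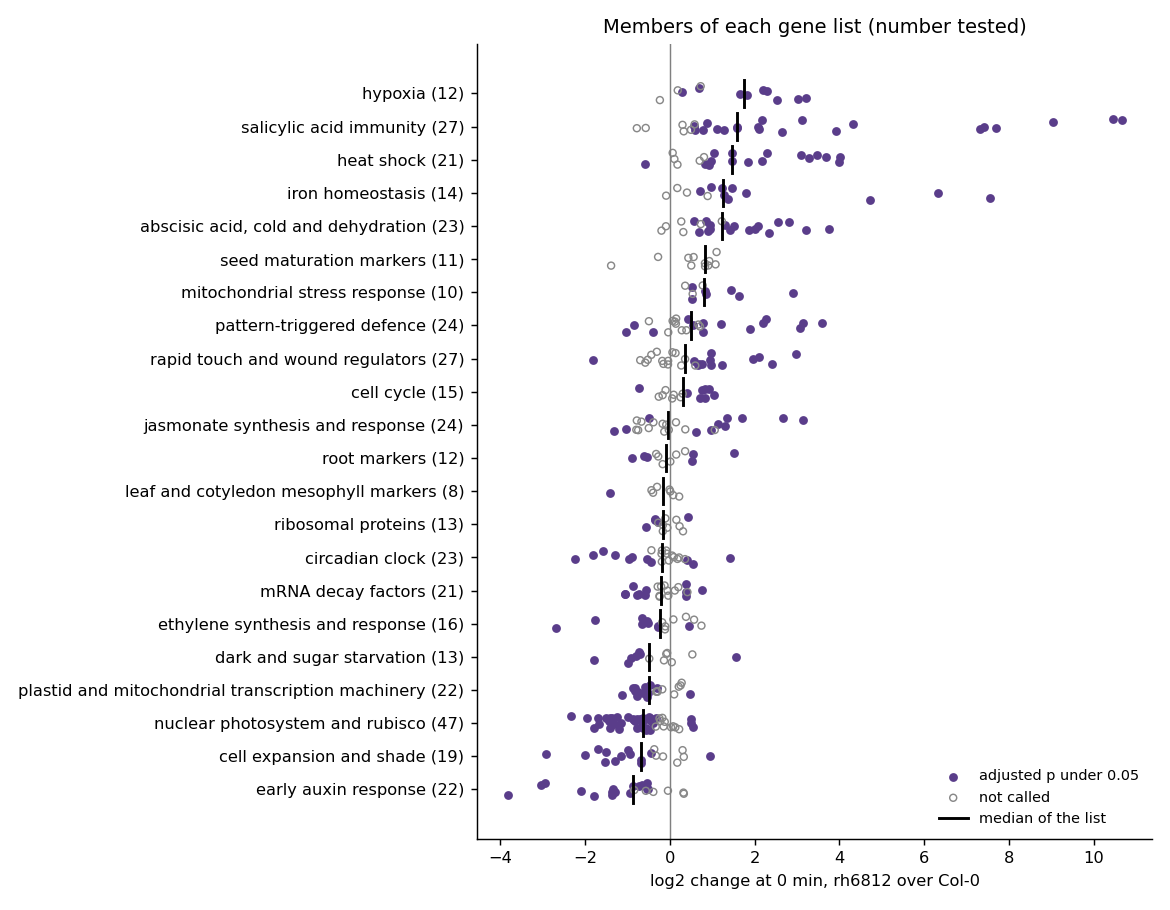
Log2 change at 0 min (rh6812 over Col-0) of the tested members of 22 gene lists, ordered by median (black bar), with the number tested in brackets. Filled points have an adjusted p under 0.05. Lists of hypoxia, salicylic acid, heat shock, iron and abscisic acid genes lie mostly to the right of 0, and those of auxin, expansion and photosystem genes to the left. The points of PR2, LURP1 and NIMIN-1 are fitted against no count in Col-0, so their exact position has no meaning.

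mRNA decay factors, which act in the same process as the helicases, were called in both directions, in all about as often as other loci. Of 21 members, 4 rose and 7 fell, against 24.4% and 24.0% of all loci (median -0.21). RRP44A (AT2G17510), a nuclease of the exosome, had 9.93, 8.88 and 8.84 CPM in rh6812 libraries, against 19.5, 18.9 and 18.9 CPM in Col-0 libraries (log2 change -1.05 ± 0.12 SE, adjusted p = 6.9e-08). UPF1 (AT5G47010), the central helicase of nonsense-mediated decay, had 22.9, 22.7 and 22.1 CPM in rh6812 libraries, against 37.8, 41.6 and 44.6 CPM in Col-0 libraries (log2 change -0.87 ± 0.11 SE, adjusted p = 3.6e-07). UPF3 (AT1G33980) of the same pathway fell by 0.58. All were below Col-0 without overlap. The members that rose were the decapping scaffold gene VCR (0.76), AT3G58580 (0.39), the deadenylase gene CAF1A (0.39) and LSM1B (0.38), and only 2 members rose without Col-0 replicate 1 or 2 or rh6812 replicate 1 or 2. The decapping genes DCP1 (0.11), DCP2 (0.20) and DCP5 (-0.06) were not called.

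Circadian clock genes showed 3 of 23 members higher and 8 lower, where all loci had 24.4% and 24.0% (median -0.19). LNK2 (AT3G54500), a morning coactivator gene, had 24.6, 23.2 and 21.9 CPM in rh6812 libraries, against 104, 115 and 109 CPM in Col-0 libraries (log2 change -2.24 ± 0.13 SE, adjusted p = 7.6e-13). PRR7 (AT5G02810), a daytime repressor gene, had 5.66, 4.94 and 6.59 CPM in rh6812 libraries, against 21.6, 16.6 and 23.1 CPM in Col-0 libraries (log2 change -1.83 ± 0.15 SE, adjusted p = 3.8e-10). LHY (AT1G01060), a morning transcription factor gene, had 39.4, 39.1 and 34.4 CPM in rh6812 libraries, against 69.3, 84.8 and 67.1 CPM in Col-0 libraries (log2 change -0.97 ± 0.19 SE, adjusted p = 0.00018). These genes were lower in every rh6812 library. CDF1 (AT5G62430), a repressor of flowering, rose by 1.41. With library size alone 5 members were lower.

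Genes of darkness and sugar starvation showed 6 of 13 members lower and 1 higher (median -0.49), beside 24.0% and 24.4% of all loci. At 15 min 4 were lower and 2 higher. MCCA (AT1G03090) and BCAT2 (AT1G10070) act in the breakdown of branched-chain amino acids. MCCA had 8.46, 10.2 and 10.9 CPM in rh6812 libraries, against 32.3, 38.1 and 32.8 CPM in Col-0 libraries (log2 change -1.80 ± 0.18 SE, adjusted p = 1.5e-08). BCAT2 had 4.41, 4.82 and 4.66 CPM in rh6812 libraries, against 7.84, 10.5 and 9.07 CPM in Col-0 libraries (log2 change -0.98 ± 0.17 SE, adjusted p = 4.6e-05). ASN1 (AT3G47340), an asparagine synthetase, had 18.0, 28.8 and 29.5 CPM in rh6812 libraries, against 44.5, 50.7 and 48.5 CPM in Col-0 libraries (log2 change -0.91 ± 0.21 SE, adjusted p = 0.00092). The groups were separate at these genes. Only 3 members were lower without Col-0 replicate 2, without rh6812 replicate 1 or with library size alone, and the kinase subunit gene AKINBETA1 (-0.70) was not called under any of these.

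Cell cycle genes showed 7 of 15 members higher and 1 lower (median 0.30), beside 24.4% and 24.0% of all loci. The mitotic kinase gene CDKB2;1 (AT1G76540) had 9.49, 8.23 and 10.2 CPM in rh6812 libraries, against 4.23, 5.65 and 3.80 CPM in Col-0 libraries (log2 change 1.04 ± 0.16 SE, adjusted p = 5.3e-06). CYCB1;3 (0.92), CYCB1;2 (0.84) and CDKB2;2 (0.71) rose with it. The genes of DNA replication PCNA1 (0.25), MCM2 (-0.17) and MCM5 (0.09) were not called. The lower member, CDKB1;2 (-0.73), lost its call without Col-0 replicate 1, or rh6812 replicate 2 or 3.

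The ribosomal protein list holds the 13 nuclear genes whose symbol is RPL or RPS, digits and a single letter from A to G, and leaves out other ribosomal protein genes. Membership rests on the symbol alone, so genes for cytosolic and organellar ribosomes were not told apart. At 0 min 1 rose and 4 fell (median -0.17), beside 24.4% and 24.0% of all loci. At 15 min 4 rose and 1 fell. With library size alone the split turned to 4 higher and 1 lower. RPL21C (AT1G35680) had 101, 83.2 and 95.8 CPM in rh6812 libraries, against 156, 124 and 132 CPM in Col-0 libraries (log2 change -0.56 ± 0.12 SE, adjusted p = 0.0005). RPL16B (-0.36), RPS5B (-0.34) and RPS13A (-0.27) fell, and RPL3B (0.43) rose.

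Markers of other tissues were measured beside these results. Of 12 root markers 3 rose and 3 fell, near the 24.4% and 24.0% of all loci, and the summed level was 2824 to 3311 CPM in rh6812 and 2062 to 2161 CPM in Col-0. PYK10 (AT3G09260), a root beta-glucosidase, supplied most of it with 3233, 2867 and 2758 CPM in rh6812 libraries, against 2084, 1982 and 1987 CPM in Col-0 libraries (log2 change 0.55 ± 0.10 SE, adjusted p = 9.9e-05). The Casparian strip gene CASP1 (0.53) and the nitrate transporter gene NRT2.1 (1.51) also rose, while COBL9 (-0.89), a root hair gene, and PIN2 (-0.62) and SHR (-0.54) fell. No root marker was lower without rh6812 replicate 3. The part of root content in the results above was not tested. None of 11 tested seed maturation markers was called by edgeR, and their sums ran from 5.79 to 66.7 CPM in rh6812 and from 3.93 to 44.7 CPM in Col-0. No pollen marker passed the filter on low counts, MGH3 had no count in any library, and the 5 markers summed to at most 0.411 CPM in rh6812 and 0.155 CPM in Col-0.

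The genotype change at 0 min was then set against the change in total poly(A)+ RNA of seedlings of the same age, 3 libraries for each genotype with no cordycepin label. The preparations share no library, but they differ in both poly(A) selection and the agent label, whose effects cannot be told apart. Of 20949 loci tested in total poly(A)+ RNA, 6753 (32.2%) were higher and 6783 (32.4%) lower in rh6812, 64.6% in all. Over the 20319 loci tested in both, 6473 were called in the same direction, 64.6% of the calls at 0 min and 49.0% of those in total RNA. Opposite calls were made at 895 loci. The difference between the preparations itself passed the test at 6407 of 20909 loci (30.6%), with the rRNA-depleted change higher at 2879 (13.8%) and lower at 3528 (16.9%). With library size alone this balance turned, to 4003 higher and 2261 lower. It passed at 449 loci in the higher and 440 in the lower direction among the 895.

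RH6 showed such a difference. Its log2 change was 3.42 at 0 min and 1.27 in total poly(A)+ RNA (difference 2.12 ± 0.14 SE, adjusted p = 2.7e-07). RH8 and RH12 did not pass this test (differences 0.13 and -0.24).

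The ribosomal protein list differed mostly one way. In total poly(A)+ RNA 11 of 13 were higher and none lower, beside 32.2% and 32.4% of all loci. The median was 0.74 there, against -0.17 at 0 min. The difference passed for 11 of 13, all lower at 0 min, beside 16.9% of all loci. RPL3B changed by 0.43 at 0 min and 2.07 in total RNA (difference -1.67 ± 0.16 SE, adjusted p = 5.8e-06), RPL16B by -0.36 and 0.76 (difference -1.15 ± 0.12 SE, adjusted p = 1.3e-05).

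Organelle transcription genes behaved alike. In total RNA 11 of 22 were higher and 5 lower, beside 32.2% and 32.4% of all loci. At 0 min 1 was higher and 13 were lower. The difference passed for 16 in the lower and 1 in the higher direction, beside 16.9% and 13.8% of all loci. FLN2 (AT1G69200), a fructokinase-like part of the plastid transcription complex, changed by -0.53 at 0 min and 0.79 in total RNA (difference -1.35 ± 0.18 SE, adjusted p = 7.2e-05). Of 8 mesophyll markers, 6 rose and 2 fell in total RNA, and the difference was lower at 0 min for 6.

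Dark and sugar starvation genes differed the other way. In total RNA 12 of 13 were lower and 1 higher, beside 32.4% and 32.2% of all loci (median -1.54, against -0.49 at 0 min). The difference was higher at 0 min for 11 of 13, beside 13.8% of all loci. ASN1 changed by -0.91 at 0 min and -4.39 in total RNA (difference 3.45 ± 0.25 SE, adjusted p = 1.5e-06), and BCAT2 by -0.98 and -3.46 (difference 2.44 ± 0.25 SE, adjusted p = 8.6e-06).

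Clock genes differed in both directions, 10 of 23 higher and 6 lower at 0 min, beside 13.8% and 16.9% of all loci. LHY fell at 0 min (-0.97) and rose in total RNA (3.63), the widest gap of the list (difference -4.62 ± 0.17 SE, adjusted p = 1.6e-10). Of all loci in total RNA, 32.2% were higher and 32.4% lower. Jasmonate genes there were called higher for 19 of 23, and pattern-triggered genes higher for 10 and lower for 11 of 24. Of the heat shock list the difference was lower at 0 min for 8 of 19 genes, while in the salicylic acid list it passed for only 2 of 27 in each direction.

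**Figure D5:**
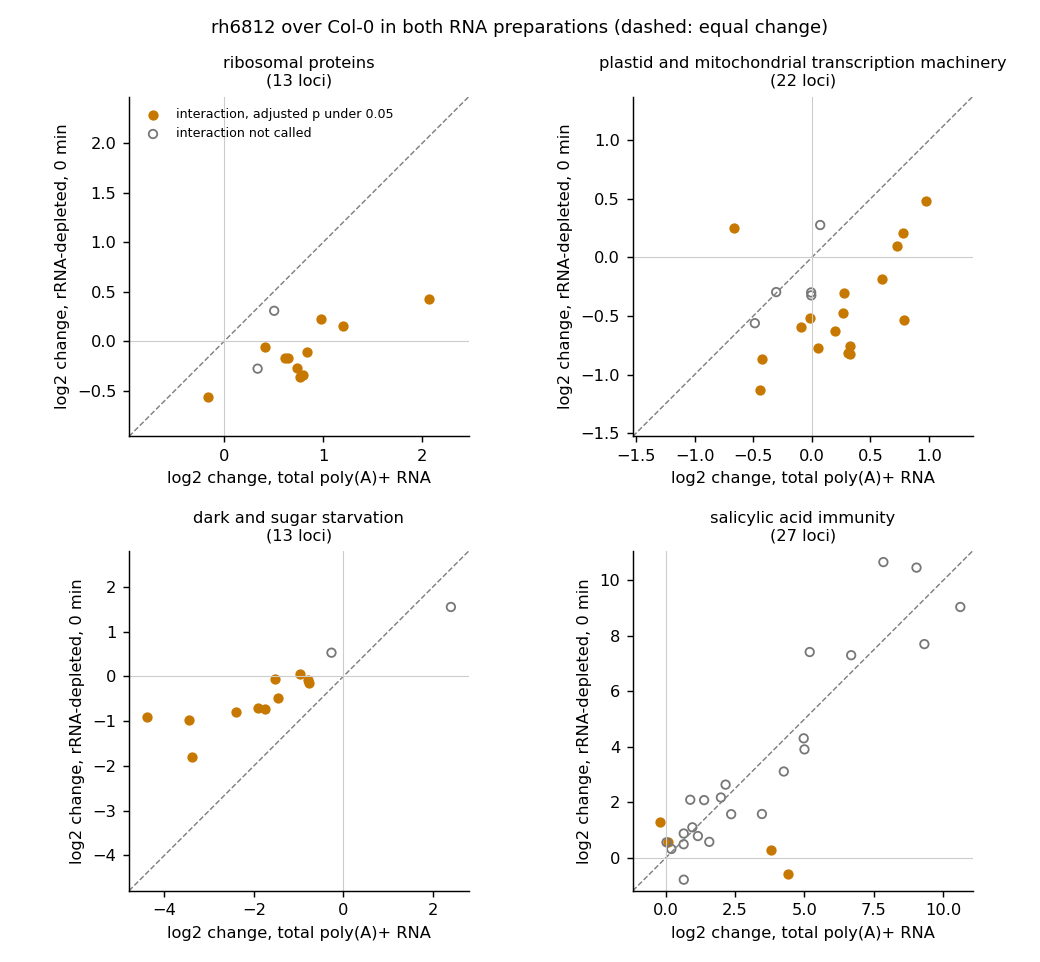
Log2 change (rh6812 over Col-0) at 0 min in rRNA-depleted RNA against that in total poly(A)+ RNA for 4 gene lists, with a dashed line where both are equal. Filled points passed the test of the difference at an adjusted p under 0.05. Ribosomal protein and organelle transcription genes lie mostly below the line, dark and sugar starvation genes mostly above it, and salicylic acid genes along it.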

How the data were processed

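Whole 5-day-old seedlings were sequenced as 42 libraries in 14 groups of 3. The authors deposited raw whole-number counts per locus. Per the submitters' processing notes Bowtie2 2.2.5, TopHat2 2.0.14 and TAIR10 were used. No source used here names the counting program, strand setting or annotation version, so overlapping genes, antisense partners and near-identical copies may share counts. Of 27667 loci (88 chloroplast, 122 mitochondrial), 27455 matched the names table of TAIR10.1, used for names only. Annotated descriptions covered 6 chloroplast and 45 mitochondrial loci, so organelle loci were ranked by compartment and not by gene group as first designed.

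Tests used R 4.3.3 and edgeR 4.0.16: TMM, filterByExpr (minimum count 10, total 15), the robust two-sided quasi-likelihood test and Benjamini-Hochberg adjustment over all loci at 0.05. The 0 min and 15 min contrasts came from a fit of all 30 rRNA-depleted libraries, so groups share 1 estimate of spread. The total RNA contrast came from the 12 poly(A)+ libraries, and the difference between preparations from 12 libraries, 6 at 0 min and 6 of total RNA. SE was the absolute log2 change over the square root of F. No 2 replicates were duplicates (chi-square per degree of freedom 10.6 to 23.4). Counting intervals are 95% and exact. The scripts were tested on simulated data. Alternatives used DESeq2 1.42.0.

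The members and 24 gene lists were chosen with earlier results of these data known. Named genes were the helicases, the 8 largest nuclear changes in each direction (mean log2 CPM of at least 3, no overlap), the 4 smallest p in each list, the 3 smallest p in each organelle and the 4 largest differences between preparations in each direction. Others are said to be chosen after their values were seen, or are listed as the few exceptions to a count or as members not called. A gene that this rule names is not reported here.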

Additional observations from a re-analysis of the deposited data

Results flagged for a closer look

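The genotype change differed between rRNA-depleted RNA at 0 min and total poly(A)+ RNA by the test of the difference itself. It was higher at 0 min for 2879 loci and lower for 3528, and with library size alone higher for 4003 and lower for 2261. The values below are log2 differences, the change at 0 min minus that in total RNA.

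The 4 widest positive differences were those of QQS, a starch regulator (6.01, with changes of 3.05 at 0 min and -2.97 in total RNA), PTR3, a peptide transporter gene (4.12), ARCK1, a receptor-like kinase gene (3.97), and EXPA16, an expansin gene (3.69). The 4 widest negative ones were those of FAMT, a methyltransferase gene (-5.33), HSP17.4, a small heat shock protein gene (-4.80), LHY (-4.62) and ELIP2, an early light-induced gene (-4.58, with changes of 2.64 at 0 min and 7.20 in total RNA).

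Within the gene lists, the member with the smallest p of this test was flagged for each. Positive differences were found for RH6 (2.12), the salicylic acid receptor gene NPR4 (1.46), FRK1 (2.56), COI1 (0.95), the ethylene receptor gene ETR2 (1.46), the phosphatase gene ABI2 (1.54), HB1 (1.81), the auxin-conjugating enzyme gene GH3.6 (2.45), ASN1 (3.45) and the ferric reductase gene FRO3 (2.36). Negative ones were found for UPF1 (-0.73), ZAT10 (-1.34), OM66 (-1.90), EXPA1 (-2.08), RBCS1B (-1.04), FLN2 (-1.35), CYCD3;1 (-0.74), GLDP1, a photorespiration gene (-1.19), SHR (-0.61) and RPL3B (-1.67). What sets the preparations apart was not tested.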

How the results depend on the processing

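Of 136 named gene results, 125 kept their direction and side of the threshold under every alternative that gave a value, and none reversed. Library size alone moved the counts of loci lower at 0 min to 2573, of mitochondrial loci lower to 10, of chloroplast loci higher to 1, of loci lower at 15 min to 3029 and of loci with a lower change at 0 min than in total RNA to 2261, and it gave 60 chloroplast loci lower. Leaving out 1 replicate gave 4542 to 4922 loci higher and 4249 to 4729 lower at 0 min, 65 to 68 chloroplast loci lower and none higher, 8 to 11 mitochondrial loci higher and 21 to 27 lower. It gave 4675 to 5078 higher and 4648 to 5107 lower at 15 min, and differences between preparations of 2229 to 3214 higher and 2793 to 3795 lower. The share of counts, rh6812 minus Col-0, ran from -9.31 to -7.10 percentage points for the chloroplast and from 0.0818 to 0.117 for the mitochondrion. The cause was not tested.

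Deviations of same-numbered replicates of the genotypes had correlations of 0.077, 0.361 and 0.222. Those of differently numbered replicates ran from -0.321 to 0.206. The main fit did not pair samples by number, and a block by number was run as an alternative. With a replicate block 5664 loci were higher and 5560 lower at 0 min, and every library but Col-0 replicate 1 correlated best with the library of its own number. Under the block 3 mesophyll markers and 1 seed marker were lower, and 2 organelle transcription genes were higher.

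The alternative that left rRNA and tRNA loci out of the share of counts was not run, since no source used here names such loci. Total counts of 13965971 to 22251739 limit precision at low levels, where single libraries decided some calls.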
